A study of Mus musculus with 4 samples.

Results

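Oligodendrocytes (OLGs) that carried RNA of C4b or Serpina3n were examined in single cells of the mouse hippocampus after sham surgery or 2VO, the two-vessel occlusion in which both common carotid arteries are clamped for a time to starve the forebrain of blood. A barcode was taken as an OLG when it held at least 650 genes, at least 12 UMIs of Mog, Mag and Ermn together per 10000 UMIs, and under 40 UMIs per 10000 both of the endothelial genes Cldn5, Flt1 and Ly6c1 and of the microglial genes C1qa, C1qb and C1qc. A UMI is a molecular tag that marks 1 captured RNA molecule. The cells were chosen by these measured UMIs: an OLG with at least 2 UMIs of C4b and Serpina3n together was a C4b/Serpina3n OLG, and every OLG with fewer served as the comparison within the same library. By this rule 433 of 3743 OLGs were C4b/Serpina3n OLGs, out of 14147 barcodes with 650 or more genes and 17931 barcodes in all. The mice were C57BL/6 animals, given as 12 weeks old in the sample labels, and whole hippocampi were dissociated at 37 °C according to the same labels. The methods of the study give a younger age range and a lower temperature, and which holds for these libraries is unknown. The values come from sham 1, sham 2 and 2VO 1, which are 1 library from 1 mouse each. The library 2VO 2 is not analysed here. Every statement on 2VO therefore rests on 1 operated mouse.

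OLGs wrap axons in myelin and supply them with metabolites. C4b encodes complement component C4, which is cleaved in the classical and lectin pathways so that a fragment binds covalently to nearby surfaces, and Serpina3n encodes a secreted inhibitor of serine proteases such as granzyme B and neutrophil elastase. Both transcripts are known from reactive astrocytes (ASTs) and from the disease-associated OLGs described in mouse models of demyelination and neurodegeneration. In the reference annotation C4b (ENSMUSG00000073418) lies at chr17:34728380-34743882 on the minus strand of GRCm38, and Serpina3n (ENSMUSG00000021091) at chr12:104406729-104414329 on the plus strand. The near-identical neighbour C4a and the Serpina3n relative Serpina3h are not among the 31053 genes counted, so reads they share with C4b or Serpina3n cannot be told apart from it.

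The libraries differed in depth, and this touched the choice of cells. Sham 1 held 65287386 UMIs, sham 2 40459614 and 2VO 1 18754480, and the median over barcodes with 650 genes was 8191, 5249 and 2311 UMIs. The mitochondrial share of the UMIs was 3.38%, 4.09% and 5.89% in the same order. Between 25 and 28 barcodes of each library recurred in another library, and 0, 2 and 5 C4b/Serpina3n OLGs carried such a barcode in sham 1, sham 2 and 2VO 1. A rule that counts UMIs per cell finds a gene more easily in a deep cell, so the shallower 2VO 1 library was at a disadvantage.

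C4b/Serpina3n OLGs were a small share of OLGs in the sham mice and a large one in the 2VO mouse. They numbered 87 of 1639 OLGs in sham 1, which is 5.31% with an exact Clopper-Pearson 95% interval of 4.27 to 6.51. In sham 2 they were 54 of 1121, or 4.82% (3.64 to 6.24), and in 2VO 1 they were 292 of 983, or 29.7% (26.9 to 32.7). These intervals cover counting error within a library and not the spread between mice, and as the same UMIs chose the cells the shares were not tested.

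Thinning set all OLGs to equal depth. With each OLG thinned at random to 1000 UMIs, 1.89% of OLGs in sham 1, 2.41% in sham 2 and 30.3% in 2VO 1 still held at least 1 UMI of either gene, and 0, 0 and 10 shallower OLGs were left out. At 2000 UMIs and with 2 UMIs required, the shares were 0.373%, 1.74% and 26.8%, with 29, 32 and 386 OLGs left out. Within 2VO 1 the unthinned share was 18.9% in the third of OLGs with the fewest UMIs and 36.9% in the third with the most. The 2VO library stood above both sham libraries under each of these settings.

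**Figure D1:**
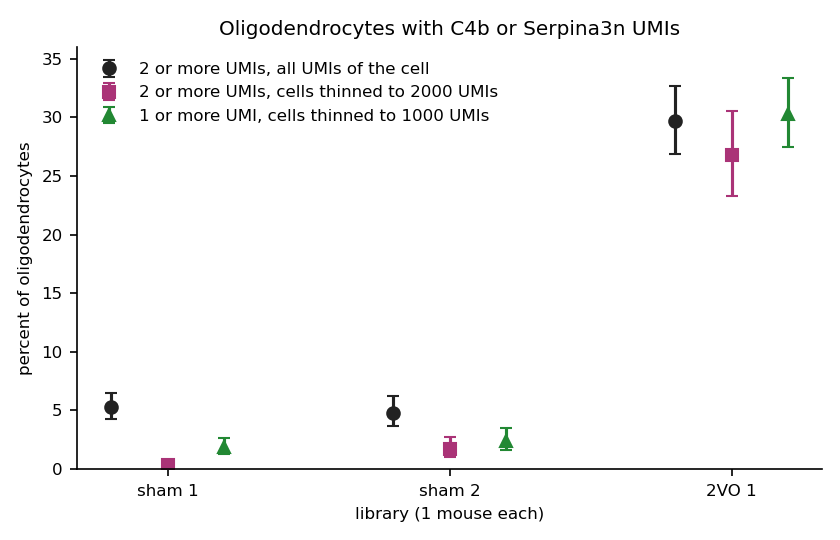
Percent of OLGs with C4b or Serpina3n UMIs (vertical axis) in each library (horizontal axis, 1 mouse each). Circles are the rule with 2 or more UMIs on all UMIs of a cell, squares the same after thinning cells to 2000 UMIs, and triangles 1 or more UMI after thinning to 1000, and bars are exact 95% intervals for counting error. The circle of 2VO 1 is at 29.7% and those of sham 1 and sham 2 are at 5.31% and 4.82%.

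Most C4b/Serpina3n OLGs were chosen through C4b. In sham 1, 56 cells held C4b alone, 9 Serpina3n alone and 22 both. Sham 2 had 32, 7 and 15 such cells, and 2VO 1 had 194, 4 and 94. The sum of both genes had a median of 3 UMIs per chosen cell in either sham library with a highest cell of 8 and 26, and a median of 4 with a highest cell of 35 in 2VO 1. Per 10000 UMIs the chosen OLGs held 1.63, 3.72 and 15.2 of C4b and 0.473, 0.736 and 1.73 of Serpina3n in sham 1, sham 2 and 2VO 1. Both levels were highest in 2VO 1, and these values describe the choice of cells rather than a result about them.

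The threshold cut through a continuum. Just inside it, 41, 25 and 70 cells held exactly 2 UMIs, at a median rate of 1.73, 2.07 and 8.21 per 10000. Just outside it, 129, 100 and 150 OLGs held exactly 1 UMI, at 0.848, 1.21 and 4.36 per 10000. A cell at the threshold thus carried these RNAs at a higher rate in 2VO 1 than in the sham libraries. If 2 UMIs per 10000 were required instead, 48 OLGs in sham 1, 48 in sham 2 and 420 in 2VO 1 would be chosen.

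How often both RNAs shared a cell is given as a description without a test. A Serpina3n UMI was present in 13.3%, 13.3% and 23.3% of OLGs with a C4b UMI in sham 1, sham 2 and 2VO 1. Among OLGs with no C4b UMI the share was 3.46%, 4.07% and 6.56%. The OLGs with C4b were somewhat deeper, with a median of 11941 against 11663 UMIs, 8187 against 8035, and 2636.5 against 2144.

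Other cell types were gated in the same way to place these levels. In 2VO 1 OLGs as a whole held 5.74 C4b UMIs per 10000, the AST gate 1.91, the microglia gate 1.47, the OPC gate (oligodendrocyte precursor cells) 1.11 and the endothelial (EC) gate 0.419. In sham 1 the AST gate was highest at 0.857, followed by OLGs at 0.128, and in sham 2 the AST gate held 1.45 and OLGs 0.284. The order of OLGs and ASTs for C4b was thus opposite in 2VO 1 and in both sham libraries.

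Serpina3n was ordered differently. In sham 1 and sham 2 its highest level was in the OPC gate, at 0.199 and 0.254 UMIs per 10000, against 0.0443 and 0.0770 in OLGs. In 2VO 1 the AST gate held 1.91 but only 5.56% of its 90 cells had a Serpina3n UMI, whereas OLGs held 0.727 with a UMI in 13.4% of cells.

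Free RNA in the droplets can give UMIs to cells that do not express a gene. In the EC gate 2.95% of cells of 2VO 1 (2.05 to 4.10) passed the 2-UMI threshold at a median of 2019 UMIs per cell, against 29.7% of OLGs at 2309. The microglia gate had 7.75%, the OPC gate 6.38% and the AST gate 14.4%. In sham 1 and sham 2 the EC gate had 0.0962% and 0.0572%, and the AST gate 11.3% and 16.9%. The share in OLGs of 2VO 1 was above that of every other gate in that library. The part of free RNA in it was not tested.

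**Figure D2:**
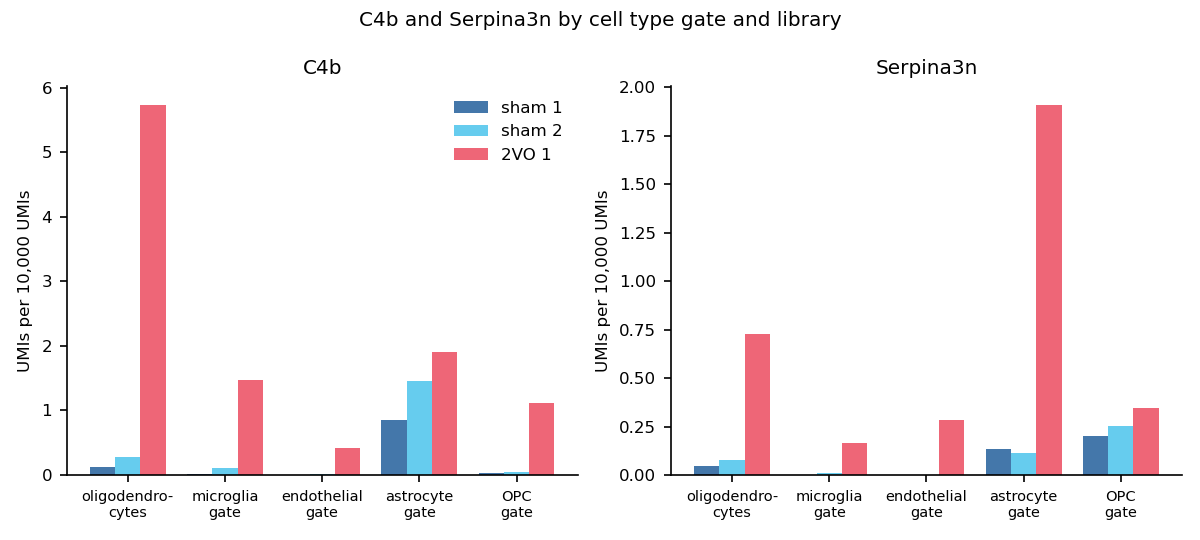
UMIs of C4b (left) and Serpina3n (right) per 10000 UMIs (vertical axes, from 0) in OLGs and in 4 other cell type gates (horizontal axes), with 1 bar per library summed over its cells. C4b in OLGs of 2VO 1 reaches 5.74, and the next bar of that library is the AST gate at 1.91.

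The label OLG was checked against markers that the rule did not use. All 8 genes of that marker list were detected in the chosen cells of each library, and none of the 8 was called higher or lower than in other OLGs. Mog and Mag, whose levels the rule itself bounds in both classes, encode proteins of the outer and the innermost myelin layers. Mog was at 28.7, 20.1 and 12.5 UMIs per 10000 in the C4b/Serpina3n OLGs of sham 1, sham 2 and 2VO 1 and at 30.1, 23.04 and 13.4 in the other OLGs. Mag was at 39.2, 26.8 and 35.0 against 46.8, 30.1 and 37.2.

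Markers of ASTs, the other main source of these transcripts, were not raised as a sum in the chosen cells. The 10 AST markers together were at 1.08, 1.94 and 2.77 UMIs per 10000 in C4b/Serpina3n OLGs and at 1.29, 2.29 and 3.097 in other OLGs of sham 1, sham 2 and 2VO 1. Of the 10, 4, 3 and 6 were higher in the chosen cells, and without Slc1a2 the sum in 2VO 1 was 1.86 against 1.78. A smaller set, Aqp4, Gja1, Gjb6, Slc1a3, Slc1a2 and Slc7a10, was used to count cells with at least 2 AST UMIs. These were 28.7%, 24.1% and 12.3% of the chosen cells and 27.1%, 22.9% and 12.0% of the others. The 9 microglial markers were at 0.313, 0.234 and 3.04 against 0.236, 0.299 and 4.43, and the 6 macrophage markers were at 0 in the chosen cells of both sham libraries. Endothelial markers were higher in the chosen cells of 2VO 1 only, at 6.53 against 4.63 per 10000. Scrublet marked 2, 3 and 13 of the chosen cells and 45, 41 and 23 of the other OLGs as doublets.

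Gene expression was then compared between both classes within libraries. For each library the UMIs of a class were added up gene by gene, and the sums were tested with the library as a block (edgeR quasi-likelihood test, Benjamini-Hochberg adjustment, fold over 1.5 on top of an adjusted p under 0.05). The 11 genes of the rule were left out of the test. Of 9082 genes, 53 (0.584%) were higher and 95 (1.05%) lower in the C4b/Serpina3n OLGs. The sign was the same in all 3 libraries for 48 of the 53 and 94 of the 95, as against 15.1% and 15.4% of all tested genes. The test, with the library as a block, favours genes whose difference is alike in these libraries, so the agreement is no separate support. Since the chosen cells were the deeper ones, the test was repeated with an equal number of other OLGs matched on UMIs per cell, where 22 genes were higher and 80 lower. Of the original calls, 21 of 53 and 62 of 95 were called there again. DESeq2 called 24 and 44, all of them among the edgeR calls.

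**Figure D3:**
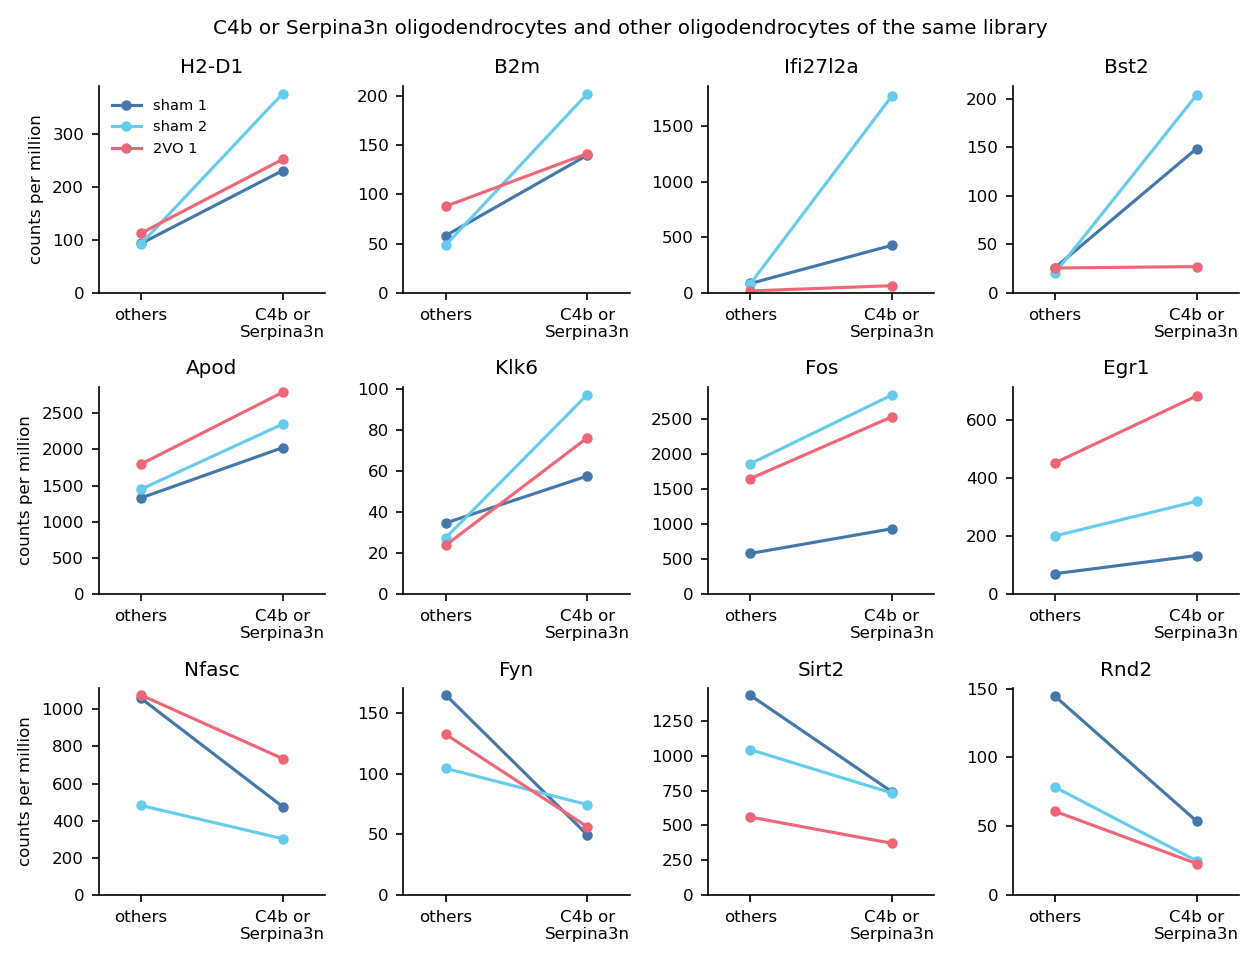
Counts per 1000000 (vertical axes, from 0, each gene with its own scale) of 12 genes in other OLGs and in C4b/Serpina3n OLGs (horizontal axes), with 1 line per library. The upper 8 genes are higher in the chosen cells of every library and the lower 4 are lower, although Bst2 is nearly level in 2VO 1 at 25.7 and 27.2.

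Several MHC class I genes were higher in the C4b/Serpina3n OLGs. These molecules present peptides from inside the cell to CD8 T cells, and mature OLGs normally display few of them. Of 16 listed genes of MHC class I and peptide loading 10 could be tested, 5 were called higher and none lower, and the median log2 fold change was 0.87 against 0.01 over all tested genes. The same list had 5 called higher with matched depth and 5 without the 2VO library. The contrast was smaller in 2VO 1 for 8 of the 10, and the interaction called H2-T23 and B2m, with a list median of -0.76.

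H2-D1 (chr17:35262730-35267499), a classical class I heavy chain, was at 231, 376 and 252 counts per 1000000 (CPM) in the chosen OLGs of sham 1, sham 2 and 2VO 1. In other OLGs it was at 93.3, 92.7 and 113. The log2 fold change was 1.49 ± 0.12 (SE, adjusted p = 7.8e-07), and a UMI was found in 57.5%, 61.1% and 43.5% of the chosen cells against 33.3%, 24.9% and 20.98%. In sham 2 the 5 richest cells held 66.04% of the H2-D1 UMIs of the class, in sham 1 37.7% and in 2VO 1 21.95%.

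B2m (chr2:122147686-122153083), the light chain common to class I molecules, was at 140, 202 and 141 CPM against 58.2, 48.6 and 88.0 in other OLGs. Its log2 fold change was 1.32 ± 0.16 (adjusted p = 5.6e-05). H2-T23, a non-classical class I gene, differed by 2.65 ± 0.38 (adjusted p = 0.00031), but by 1.50 without sham 2, and only 5.82% of the chosen cells of 2VO 1 held a UMI against 4.49% of the others. Psmb8, a subunit of the immunoproteasome that cuts peptides for class I, differed by 2.33 ± 0.39, and H2-K1, the other classical heavy chain, by 0.79 ± 0.16 and by 0.57 without sham 2, below the fold required. The peptide transporter genes fell short: Tap2 had a log2 fold change of 0.46 (adjusted p = 0.86), and Tap1 had too few counts to test. None of the 5 MHC class II genes listed reached the count filter, and Cd74, the class II invariant chain, had 0, 0 and 2 UMIs in all chosen cells.

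The start sites of H2-D1 and B2m, the class I genes described first, are shown together with that of Serpina3n, which chose the cells. Each runs from 250 bases before to 50 bases after the start in the RefSeq table, on the plus strand of GRCm38.p6 from RefSeq. Capitals mark matches to the core of the interferon-stimulated response element, taken as GAAA, any 2 bases and GAAA again. TTCNNNGAA, the palindrome that STAT dimers bind, was searched as well, and either motif was looked for on both strands. C4b had no entry in the table. For H2-D1 that start lies downstream of the gene start given above, which comes from another annotation.
Serpina3n chr12:104406458-104406757: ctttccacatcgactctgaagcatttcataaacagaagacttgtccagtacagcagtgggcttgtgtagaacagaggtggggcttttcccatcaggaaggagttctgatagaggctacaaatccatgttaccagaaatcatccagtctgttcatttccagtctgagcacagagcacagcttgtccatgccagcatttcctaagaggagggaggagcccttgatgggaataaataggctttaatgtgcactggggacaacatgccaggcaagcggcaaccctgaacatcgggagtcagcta
H2-D1 chr17:35262844-35263143: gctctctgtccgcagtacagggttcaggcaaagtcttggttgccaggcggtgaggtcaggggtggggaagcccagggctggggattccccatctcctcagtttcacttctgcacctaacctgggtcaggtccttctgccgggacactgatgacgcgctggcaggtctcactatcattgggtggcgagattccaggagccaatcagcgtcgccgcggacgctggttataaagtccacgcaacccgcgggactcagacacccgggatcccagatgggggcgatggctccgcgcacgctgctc
B2m chr2:122147437-122147736: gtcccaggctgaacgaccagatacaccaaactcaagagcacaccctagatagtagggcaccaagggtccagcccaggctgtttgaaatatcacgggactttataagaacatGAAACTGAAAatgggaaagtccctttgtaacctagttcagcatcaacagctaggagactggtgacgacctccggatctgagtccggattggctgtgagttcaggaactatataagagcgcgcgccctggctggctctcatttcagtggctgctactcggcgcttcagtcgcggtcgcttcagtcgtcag
B2m held 1 match to the response element core at bases 112 to 121 of its window, and the windows of Serpina3n and H2-D1 held neither motif. Of 32851 promoter windows in the table, 3.44% held the response element core and 8.30% the STAT motif. These are matches of letters and not measured sites.

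Interferon-stimulated genes were higher as a group, mostly through the sham libraries. Of 23 listed genes 17 were tested, all 17 had a positive log2 fold change, 7 were called higher and none lower, and the median was 1.15. Without the 2VO library 13 were called higher, and with matched depth 4.

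Ifi27l2a, a small interferon-induced mitochondrial protein, was at 428, 1769 and 65.8 CPM in the chosen OLGs of sham 1, sham 2 and 2VO 1 and at 85.8, 84.2 and 18.7 in others. The direction was the same in each library, as the rule for naming required. The log2 fold change was 3.23 ± 0.28 (adjusted p = 1.2e-06), and 2.18 without sham 2. A minority of cells carried it: a UMI was found in 33.3%, 33.3% and 11.3% of the chosen cells against 10.7%, 5.15% and 4.34%, and the 5 richest cells held 59.6%, 75.9% and 56.0% of the UMIs. Bst2, also known as tetherin, was at 149, 204 and 27.2 CPM against 26.1, 20.9 and 25.7. Its difference was 2.41 ± 0.29 in edgeR (adjusted p = 3.9e-05) and not called in DESeq2 (adjusted p = 0.67), and 5 cells held 86.9% of its UMIs in sham 1 and 91.3% in sham 2.

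Other members were spread over more cells. Xaf1, a pro-apoptotic interferon target, was at 96.7, 207 and 102 CPM against 45.3, 113 and 62.7, with a UMI in 52.9%, 74.1% and 29.5% of the chosen cells and 36.3%, 53.1% and 16.2% of others. The log2 fold change was 0.91 ± 0.11 (adjusted p = 3.9e-05), and it was 0.83 with matched depth (adjusted p = 0.00073). Ifi27 was at 490, 434 and 208 against 283, 212 and 168 CPM, a difference of 0.74 ± 0.10 that was 0.56 without sham 2, below the fold required. The transcription factors Irf7 and Irf9, which carry the interferon signal to the genome, differed by 2.49 and 1.71. Irf9 was not called with matched depth (adjusted p = 0.14), and Irf7 had 27, 21 and 7 UMIs in all chosen cells. Ifit1, Ifit3 and Isg15 had positive values of 1.93, 1.58 and 0.67 that did not pass the test, with adjusted p of 0.12, 0.22 and 0.72.

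Some immediate early genes were higher in the chosen cells. These genes answer within minutes to activity, stress or tissue dissociation. All 18 genes of the immediate early and heat shock list were tested, 8 were called higher and none lower, the median was 0.55, and 14 of the 18 were higher in all 3 libraries. With matched depth 5 were called.

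Fos was at 931, 2838 and 2527 CPM in the chosen OLGs of sham 1, sham 2 and 2VO 1 and at 578, 1859 and 1646 in the others. The libraries differed more than the classes did, and within each library the chosen cells were higher. The log2 fold change was 0.64 ± 0.05 (adjusted p = 9.7e-07), and 0.57 without sham 1, below the fold required. Egr1 was at 132, 319 and 682 CPM against 70.1, 200.3 and 452, a difference of 0.71 ± 0.08 (adjusted p = 2.6e-05). Dusp1, a phosphatase that switches off MAP kinases, differed by 0.72 ± 0.08 and Ier2 by 0.97 ± 0.12. Of the chaperone genes Dnajb1 was called, at 0.71 ± 0.10, and not with matched depth (0.46, adjusted p = 0.059), whereas Hspa8 and Hsp90aa1 had 0.09 and 0.19 and were not called.

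Genes of newly formed and myelin-forming OLGs were lower. Of 14 listed genes 12 were tested, 9 were called lower and none higher, 11 were lower in all 3 libraries, and the median log2 fold change was -1.11. With matched depth 7 were called lower, and without the 2VO library 10.

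Nfasc (chr1:132564690-132741797), a cell adhesion molecule at the axon-glia junction, was at 475, 303 and 734 CPM in the chosen OLGs and at 1058, 482 and 1075 in others. It was lower in each library, by 0.81 ± 0.09 on the log2 scale (adjusted p = 1.9e-05). Fyn, a kinase that starts myelination, was at 49.6, 74.5 and 56.2 CPM against 165, 104 and 132, and its log2 fold change was -1.26 ± 0.15 (adjusted p = 5.6e-05). Tcf7l2, a transcription factor of OLGs in transit to the mature state, had -1.40 ± 0.17, Gpr17, a receptor of committed precursors, -1.02 ± 0.16, and Itpr2, a calcium channel used as a marker of newly formed OLGs, -1.17 ± 0.18. Enpp6 and Opalin, with -0.30 and -0.09, were not called.

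These lower sums did not come with fewer cells holding the RNA in every case. Fyn had a UMI in 36.8% against 48.3% of cells in sham 1 but in 46.3% against 33.8% in sham 2, and Tcf7l2 in 26.4% against 26.0% and 22.2% against 21.6%. Over the 95 genes called lower, the share of cells with a UMI was also lower in all 3 libraries for 38 genes, or 40%, against 2.53% of all tested genes. The share was higher in all 3 libraries for 43 of the 53 genes called higher, against 43.7% of all tested genes. The chosen cells had more UMIs per cell, and the part of depth in these shares was not tested.

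Outside the list, 9630013A20Rik had the smallest p of all genes and was picked after its value was seen, because its counts in the chosen cells were below the minimum for naming. This long non-coding RNA, known from newly formed OLGs, was at 4.87, 0 and 1.76 CPM in the chosen cells and at 190, 43.3 and 59.9 in others. Rnd2, an atypical small GTPase, was at 53.6, 24.8 and 22.8 against 144, 78.3 and 60.8 CPM, with a log2 fold change of -1.47 ± 0.13 (adjusted p = 2.4e-06) that was -2.08 with matched depth. Sirt2, the deacetylase abundant in myelin, was at 741, 732 and 371 against 1434, 1044 and 559.6 CPM and had -0.70 ± 0.08 (adjusted p = 1.6e-05).

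Further genes with a small p were lower. Tnr and Bcan, matrix proteins made by precursors, had -1.42 ± 0.15 and -1.71 ± 0.18, and the latter was -2.37 without 2VO 1. In the sham libraries 2.30 to 4.60% of the chosen cells had a UMI of either, so these sums rest on few cells. Ttyh1 had -1.08 ± 0.11, Tmem163 -1.16 ± 0.11, Frmd4a -1.52 ± 0.16 and Pcdh7 -1.45 ± 0.16. Of the 8 OPC markers 3 were called lower (Tnr, Gpr17 and Vcan), and their sum per 10000 UMIs was 4.45 in the chosen cells of 2VO 1 against 9.80 in others, but 1.55 against 1.78 in sham 1 and 0.987 against 0.806 in sham 2. Without 2VO 1 the list turned, with 3 markers called higher, 2 lower and a median of 0.33 against -0.50 with it. Those higher were Pdgfra, Lhfpl3 and Cacng4, which the interaction also called. In the sham libraries 1.85 to 5.56% of the chosen cells had a UMI of each, so these calls rest on few cells as well.

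Myelin genes themselves hardly differed. Of 15 core myelin genes all were tested, and Nfasc alone was called. Mbp and Mobp, which encode structural myelin proteins, had log2 fold changes of -0.11 and -0.10 with adjusted p of 0.40 and 0.58, and Cldn11 and Myrf had 0.00. Tspan2 had -0.22 ± 0.06 at an adjusted p of 0.037, below the fold required.

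Markers of mature OLG states were mixed. In the list for mature type 5 and 6 cells 12 genes were tested, 1 was called higher and the median was 0.26. That gene was Apod, a lipid carrier made by mature OLGs, at 2025, 2351 and 2791 CPM in the chosen cells of sham 1, sham 2 and 2VO 1 and at 1329.5, 1451 and 1798 in others. Its log2 fold change was 0.64 ± 0.05 (adjusted p = 8.3e-07), and 0.59 at the lowest when 1 library was left out. Il33, an alarmin stored in OLG nuclei, was at 374, 1002 and 683 CPM against 230.01, 830.3 and 451, with 0.52 ± 0.08 and an adjusted p of 0.00032, just below the fold required. Trf, the iron carrier transferrin, had 0.37 ± 0.05, also below it.

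In the list for mature type 2 cells 3 of 6 tested genes were called higher, with a median of 0.70. Klk6, a trypsin-like protease that cleaves myelin proteins, was at 57.7, 97.5 and 76.4 CPM against 34.7, 27.5 and 23.9, with 1.32 ± 0.18 (adjusted p = 0.00019). A Klk6 UMI was present in 13.8%, 16.7% and 14.7% of the chosen cells against 7.02%, 7.59% and 4.92% of others. With at least 3 UMIs required for the choice it was 0.79 and not called (adjusted p = 0.57), and the same held with 2 UMIs per 10000 (0.71, adjusted p = 0.25). Hopx and Anxa5, the others called, had 0.81 and 0.61. Hopx was 0.48 without sham 2 (adjusted p = 0.19) and Anxa5 0.49 without sham 1 (adjusted p = 0.28).

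Of the 16 disease-associated OLG genes listed beside C4b and Serpina3n, 12 were tested and 2 called higher, Klk6 and Apod, with a median of 0.02 that hardly differed from that of all genes. Cd63, Cd9, Sgk1 and Ctsb, with 0.08, -0.01, -0.06 and 0.01, did not pass the test. Plin4, Steap3, Fxyd7 and Tnfrsf12a had too few counts.

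Complement beyond C4b was sparse. Of 14 complement genes and regulators 3 were tested, and Masp1, a protease of the lectin pathway, was called at 0.90 ± 0.18 (adjusted p = 0.0068) but not with matched depth (0.91, adjusted p = 0.077), in DESeq2 (0.92, adjusted p = 0.27) or without sham 1 (0.95, adjusted p = 0.31). C3, the component next in the cascade, had 1, 0 and 0 UMIs in all chosen cells of sham 1, sham 2 and 2VO 1, and C2 had 1, 2 and 0. Of 16 serpins and protease inhibitors 7 were tested and none called. Serpinb1a had 0.33 ± 0.08 at an adjusted p of 0.046, and the Serpina3n relatives Serpina3c, Serpina3f, Serpina3i and Serpina3m had no UMI in any OLG.

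Regulators of the acute phase were tested next. In the list for IL-6 family and STAT3 signalling 8 of 14 genes were tested and 2 called higher. Cebpd, a transcription factor of the acute phase, had 1.18 ± 0.24 and Socs3, the feedback inhibitor of STAT3, 0.86 ± 0.21. Neither was called with matched depth (1.13 and 0.84, adjusted p = 0.092 and 0.11) or in DESeq2 (0.13 and 0.25), Cebpd was 0.77 without sham 2 (adjusted p = 0.25), and Socs3 was not called without sham 1 or without 2VO 1 (adjusted p = 0.099 and 0.11). Stat3 itself had 0.28 (adjusted p = 0.46). In the NF-kappaB and TNF list none of 6 tested genes was called, with Nfkbia at 0.51 ± 0.10 and an adjusted p of 0.0084, below the fold required.

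Several lists showed no call. None was made among 10 tested genes of the unfolded protein response, 11 p53 targets, 17 iron and antioxidant genes, 18 genes of cholesterol synthesis and 13 mitochondrially encoded genes, whose medians were 0.08, -0.09, 0.00, -0.14 and -0.05. Among 16 lysosomal genes Ctsl alone was lower, by 0.91 ± 0.15, and by 0.46 without sham 1. In simulated counts of this design 61% of genes changed 2 times and 95% of those changed 4 times were recovered, so changes of 2 times and, more rarely, of 4 times can have been missed.

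**Figure D4:**
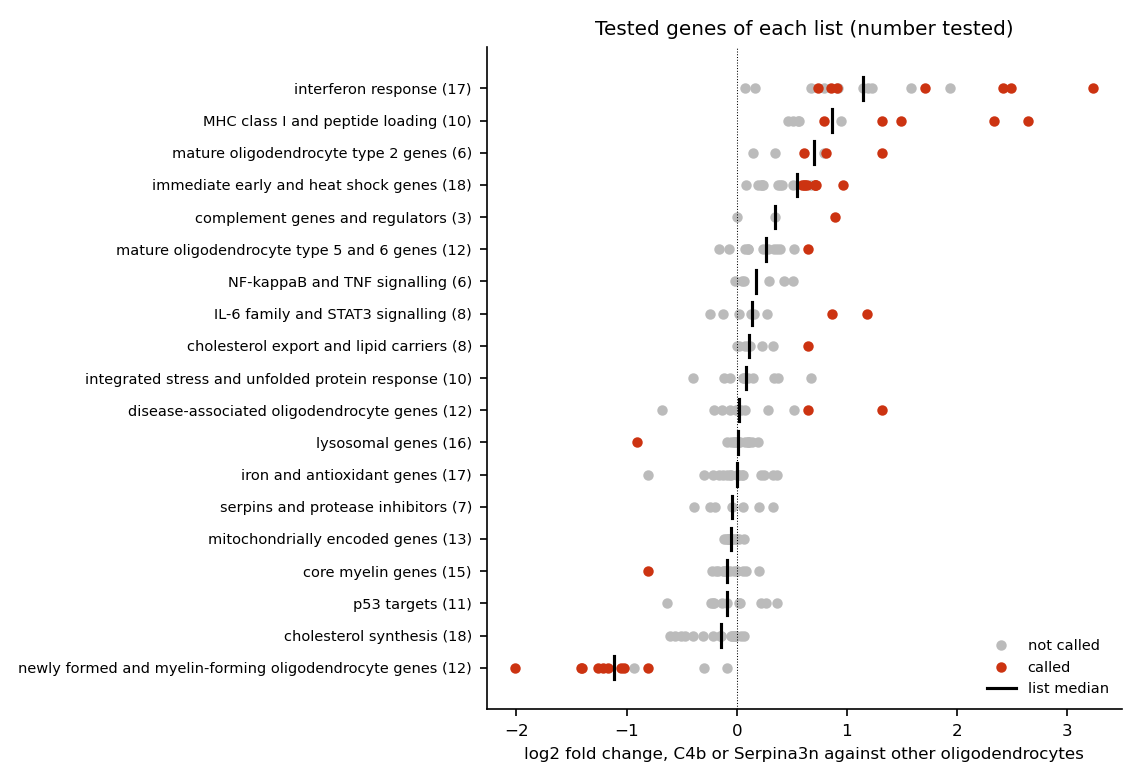
Log2 fold change of C4b/Serpina3n OLGs against other OLGs (horizontal axis) for the tested genes of each list (rows, with the number tested), red where called and grey where not, and a bar at the list's median. Marker lists of cell types are not drawn. Of the lists drawn, the interferon list lies highest with a median of 1.15 and the newly formed and myelin-forming list lowest with -1.11.

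RNA of the choroid plexus was unevenly spread over the chosen cells. Ttr, the transthyretin made by that epithelium, was at 4453, 1301 and 7931 CPM in the chosen OLGs against 1948, 1001 and 3579 in others, and 5 cells held 83.2%, 74.1% and 69.9% of its UMIs. Its difference was 0.94 ± 0.10 (adjusted p = 1.4e-05). Of 6 listed choroid plexus markers 5 were tested and 3 were called higher, Ttr, Prlr and Kl, with a median of 1.19. With matched depth none was called higher and the median was 0.21. Removing cells with 40 or more Ttr UMIs per 10000, which left 86, 53 and 220 chosen OLGs and 1527, 1040 and 467 others in sham 1, sham 2 and 2VO 1, selects on Ttr itself and is no test of that gene. With these cells removed Igfbp2 (1.60) was 1.07 and not called (adjusted p = 0.47), and 1500015O10Rik (1.29) was -0.19 (adjusted p = 0.87). Of the calls named above, those of H2-D1, B2m, Ifi27l2a, Apod, Fos, Egr1, Nfasc and Fyn were made with those cells removed as well.

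The levels were also described along the number of C4b and Serpina3n UMIs in the cell. The immediate early and heat shock list went from 74.2 to 79.2, 83.0 and 93.5 UMIs per 10000 in sham 1 cells with 0, 1, 2 or 3, and 4 or more UMIs. It went from 86.7 to 104, 104 and 128 in sham 2 and from 115 to 130, 141 and 172 in 2VO 1. The MHC class I list went from 2.24 to 4.70, 5.82 and 4.06 in sham 1, from 1.81 to 5.86, 3.31 and 19.3 in sham 2, and from 4.22 to 4.30, 5.67 and 8.18 in 2VO 1. In the sham libraries its level was already higher with 1 UMI than with none, and the highest level, in sham 2, came from 20 cells.

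Newly formed and myelin-forming genes went the other way, from 34.5 to 22.3, 20.9 and 18.4 in sham 1 and from 26.9 to 26.9, 18.9 and 18.9 in 2VO 1. In sham 2 they went from 25.1 to 19.7 and 18.4 and back to 22.7 in the class with 4 or more UMIs. The interferon list went from 4.44 to 54.0 over the classes of sham 2 and from 4.98 to 13.2 in sham 1, and only from 5.86 to 9.43 in 2VO 1. Median depth went up across the classes of 2VO 1 from 2119 to 2942 UMIs, and its part in these levels was not tested.

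**Figure D5:**
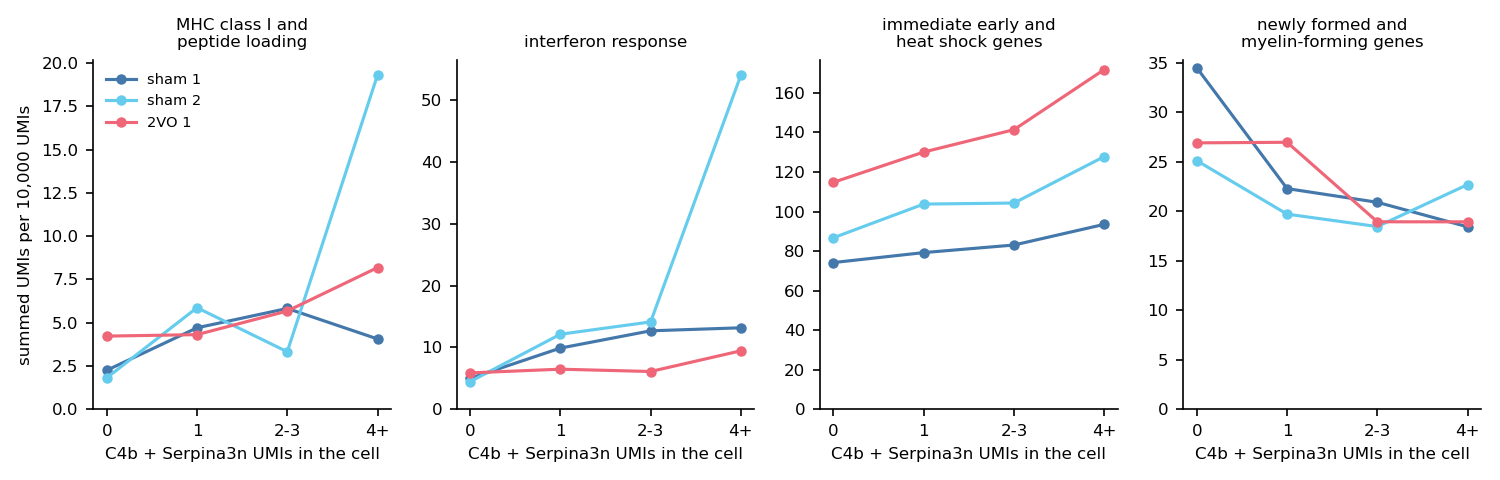
Summed UMIs per 10000 UMIs of 4 gene lists (vertical axes, from 0, each list with its own scale) in OLGs with 0, 1, 2 to 3, or 4 and more UMIs of C4b and Serpina3n (horizontal axes), with 1 line per library. The class with 4 or more holds 25, 20 and 163 cells in sham 1, sham 2 and 2VO 1, and the line of sham 2 ends at 54.0 for the interferon list.

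The last comparison set 2VO 1 against the sham libraries inside each class. With 2 sham sums and 1 2VO sum the test has 1 residual degree of freedom and assumes that the lone 2VO library would vary as the sham libraries did. Of 9314 genes tested within the C4b/Serpina3n OLGs, 749 (8.04%) were higher and 972 (10.4%) lower in 2VO 1, and within the other OLGs 552 (4.18%) and 1437 (10.9%) of 13193. DESeq2 called 21 higher and 111 lower in the former, and without the cells that held any UMI of Cldn5, Flt1, Ly6c1 or the C1q genes edgeR called 266 and 334. The latter group had no call without such cells, at 3803 genes with an unadjusted p under 0.05. Depth, mitochondrial share and RNA of other cells moved with the 2VO library, and surgery and library cannot be told apart here.

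Among the higher genes of smallest p were markers of other cell types and a pair of long non-coding RNAs. Gm26917 was at 45.4, 37.1 and 541 CPM in the chosen OLGs of sham 1, sham 2 and 2VO 1, a log2 fold change of 3.68 ± 0.24, with a UMI in 69.5% of the cells of 2VO 1. Gm26870 was at 8.11, 31.8 and 493 CPM, and 5 cells held 54.5% of its UMIs in 2VO 1. Hbb-bs, a haemoglobin chain of red blood cells, was at 1.62, 3.54 and 234 CPM, with a UMI in 52.1% of the cells of 2VO 1. Hba-a1 and Hba-a2 had no UMI in the sham cells and were at least 54.5-fold and 50.1-fold higher, against a floor of 3 counts over both sham libraries. Lcn2, an iron-carrier protein of the acute phase, was at least 189-fold higher by the same floor, but 5 cells held 98.0% of its 306 UMIs. Slco1a4 of ECs and Rgs5 of pericytes were higher by 4.89 and 5.54 on the log2 scale. Of 52 tested markers of other cell types 32 were called higher, among them 8 of 8 microglial and 7 of 7 pericyte and smooth muscle markers. Several, such as Csf1r and Kcnj8 with 0 UMIs in the chosen cells of both sham libraries, could pass the count filter only through 2VO 1. The same holds for Hba-a1, Hba-a2 and Lcn2. For all of those a higher value was fixed by the filter, so these counts and folds are a description.

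Among genes that OLGs make themselves, cholesterol synthesis was lower in the chosen cells of 2VO 1. Of 18 genes 10 were called lower and none higher, and the median was -1.47 against 0.03 for all genes. Idi1, an enzyme of the isoprenoid steps, was at 327, 168 and 31.2 CPM in sham 1, sham 2 and 2VO 1, with -3.01 ± 0.38 (adjusted p = 0.00019), and Fdps, the enzyme next to it, at 315, 216 and 59.0, with -2.18 ± 0.30 (adjusted p = 0.00038). Both were also called in DESeq2. In the other OLGs 3 of the 18 were called lower with a median of -1.26, and Fdps had -2.36 ± 0.35. For Hmgcs1 the difference between both changes was itself called, by -0.71 ± 0.16 (edgeR interaction, adjusted p = 0.0038). It was not called in DESeq2, with 3 UMIs required for the choice, or without cells holding endothelial or microglial UMIs.

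Core myelin genes were lower in 8 of 15 cases in the chosen OLGs and in 4 of 15 in others, with medians of -0.84 and -0.92, and Nfasc alone was higher in the chosen ones. Cnp had -1.26 ± 0.28 and Mal -1.57 ± 0.34 in the chosen cells. Mitochondrially encoded genes were called higher in 12 of 13 cases in the chosen cells and 4 of 13 in others, with medians of 1.19 and 0.93. Of 18 immediate early and heat shock genes 7 were called higher in the chosen cells, such as Fosb (2.53 ± 0.41) and Hsph1 (2.02 ± 0.28), and 2 in others.

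The MHC class I list had no higher call in 2VO 1 within the chosen OLGs. None of its 10 tested genes was called higher, with a median of -0.21, whereas in other OLGs 1 of 14 was, H2-Q7, with 12 of 14 above 0 and a median of 1.05. In the chosen cells H2-D1 had -0.26 ± 0.28 and B2m -0.26 ± 0.27, and H2-T23 was lower by 2.45 ± 0.59. Of 18 tested interferon genes 2 were higher, Ifitm3 and Rnf213, and 4 lower. The latter were Bst2 (-2.68 ± 0.33, adjusted p = 0.00014), Ifi27l2a (-4.06 ± 0.62), Ifi27 and Irf7. The Bst2 and Ifi27l2a sums of the sham libraries came mostly from 5 cells each, as given above.

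Few genes were called as changing differently in both classes. In simulated counts the interaction test recovered 3% of 2-fold and 49% of 4-fold changes, so few calls cannot show that few genes differed. The interaction test called 40 of 9082 genes (0.440%), 27 with a more positive change in the C4b/Serpina3n OLGs and 13 with a more negative one. DESeq2 called 1 of them, which was Apoe, and 1 was left in edgeR when 3 UMIs were required for the choice. With 2 UMIs per 10000 required instead, 17 of the 40 were called again, and 34 of the 39 still tested kept their sign. Apoe, the main lipid carrier of the brain, was at 559, 2482 and 4913 CPM in the chosen cells of sham 1, sham 2 and 2VO 1 and at 655, 3104 and 3430 in others. It was thus the lower of both in either sham library and the higher in 2VO 1, a difference of 0.80 ± 0.10 (adjusted p = 2.8e-11) that was 0.47 with depth matched (adjusted p = 0.41). A UMI was present in over 99% of the chosen cells of 2VO 1.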

How the data were processed

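Whole mouse hippocampi were dissociated and profiled by droplet single-cell RNA-seq. The deposited files hold raw UMI counts per gene and barcode, which the authors made with Cell Ranger against mm10. Seurat 3.2.2 is named in the submitters' processing notes, and how barcodes were called as cells is not given in the sources used here. The counts were not filtered further than stated in the report. Counts of each class were summed per library and tested in edgeR 4.0.16 (R 4.3.3) with TMM scaling, filterByExpr and quasi-likelihood tests, and p-values were adjusted by Benjamini-Hochberg over all genes tested. For the classes they rest on how the difference within a library varied over 3 libraries of 1 mouse each, with 2 residual degrees of freedom. For 2VO against sham they rest on the spread between the 2 sham libraries, with 1 residual degree of freedom. Both use variance estimates that are shared in part across genes. DESeq2 1.42.0 was an alternative. Doublets were scored with Scrublet in scanpy 1.11.5 and kept, and for 2VO 1 the mean threshold of the sham libraries was used since the automatic one marked 0 cells. The steps were tested on simulated data. The cells, gene lists and comparisons were chosen with earlier results of these data known. Named were the 15 higher and 10 lower calls of smallest p with at least 50 counts in the chosen cells and 1 direction in all 3 libraries, 2 genes of each list, 8 and 8 for 2VO against sham and 5 for the interaction. The other genes named were picked from the lists after their values were seen. Promoters came from RefSeq. Some genes of the lists are counted but not reported here by name.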

Additional observations from a re-analysis of the deposited data

Results flagged for a closer look

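Of the 40 genes called in the interaction, the 10 that the rule for named genes picked are given here. For these the change from sham to 2VO 1 differed between C4b/Serpina3n OLGs and other OLGs in the edgeR interaction test (Benjamini-Hochberg adjustment, 1 residual degree of freedom, 1 2VO mouse). Apoe differed by 0.80 on the log2 scale and was the one also called in DESeq2 (adjusted p = 0.00056).

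In the MHC class I list 2 of 10 genes were called with a smaller contrast between the classes in 2VO 1, and in the interferon list 2 of 17. The part of the UMI threshold, which lies at a higher rate in 2VO 1, was not tested. Ifi27l2a differed by -1.54 (adjusted p = 0.00058), B2m by -0.90 (adjusted p = 0.0099) and Bst2 by -2.75 (adjusted p = 6.8e-11). For Bst2 5 cells held 86.9% and 91.3% of the UMIs of the chosen cells in sham 1 and sham 2. Ctsl differed by 0.74 (adjusted p = 0.012).

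Marcks differed by 2.06. It was at 34.9, 30.1 and 93.0 CPM in the chosen cells and at 353, 91.3 and 174 in others, and 5 cells held 83.7% and 94.1% of its UMIs in the chosen cells of sham 1 and sham 2.

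The remaining 4 are transcripts of red blood cells and pericytes. Hbb-bs differed by 5.48 and Rgs5 by 4.29. Of the 4493 Hbb-bs UMIs in the other OLGs of sham 2, 4363 lay in 1 cell. Hba-a1 and Hba-a2 had fitted differences of 10.19 and 9.95, which depend on the prior count of the fit because both genes were at 0 in the chosen cells of the sham libraries.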

How the results depend on the processing

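The share of C4b/Serpina3n OLGs was above both sham libraries in 2VO 1 under every setting tried. In sham 1, sham 2 and 2VO 1 it was 13.2%, 13.7% and 45.0% with 1 UMI, and 2.81%, 2.59% and 22.6% with 3. With 2 UMIs per 10000 it was 2.93% in sham 1 and 42.7% in 2VO 1, and with 200 genes per cell 24.1% in 2VO 1. After thinning to 1000 UMIs it was 1.89% and 2.41% in the sham libraries with 1 UMI, and 0.244%, 0.268% and 15.6% with 2. After thinning to 2000 it was 3.73% and 42.5% in sham 1 and 2VO 1 with 1 UMI, and 0.373%, 1.74% and 26.8% with 2. With the OLGs of a library split into low, middle and high depth it was 2.41% and 6.68% in the low and high class of sham 2, and 18.9%, 33.3% and 36.9% in 2VO 1.

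Of 148 genes called between the classes, 68 were called in DESeq2, and 230 were called with no filter on low counts. Without a library 107 to 246 were called, the lowest without sham 1, the highest without 2VO 1 and 221 without sham 2. Of the 148, 81 were called again without sham 1, 136 without sham 2 and 133 without 2VO 1. With no replicate block 0 were called by edgeR, at 98 genes with an unadjusted p under 0.05 against 959 with the block, where the block pairs both classes of 1 mouse. No paired analysis was run for 2VO against sham, since the labels pair no sham mouse with a 2VO mouse. Without one sham library those comparisons leave no residual degrees of freedom and give a value with no test.

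Within the chosen cells 1721 genes were called between 2VO 1 and sham, and 822 with Ttr-rich cells removed, 600 with cells holding endothelial or microglial UMIs removed and 132 in DESeq2. Within others 1989 were called, and 1196 with as many others as chosen cells, matched on UMIs within a library and not between 2VO and sham, 0 with those cells removed and 4491 with no filter. The interaction called 40 genes, and 1 with 3 UMIs required, 8 with doublets removed, 8 with cells holding AST UMIs removed, 15 without Ttr-rich cells, 11 without cells with endothelial or microglial UMIs and 1 in DESeq2. The causes were not tested.

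Signs turned for Ttr (-0.0866 without cells holding AST UMIs and -0.0875 without Ttr-rich cells), 1500015O10Rik (-0.38 and -0.19 with the same removals and -0.14 without doublets), Ctsz (-0.17 with 3 UMIs required) and Cd59a (-0.11 without sham 1 and 0.67 without 2VO 1). Of 783 values of 49 named genes between the classes, 698 kept their sign and side of the threshold, 68 lost the call, 10 gained it and 7 turned. The removals of Ttr-rich cells and of cells with endothelial or microglial UMIs, and the split by depth, were added after the data were seen.

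Sham cells were deeper than 2VO cells, and 2VO was 1 mouse. In simulated 2VO against sham counts in the chosen cells 16% of 2-fold and 72% of 4-fold changes were recovered, and 3% and 49% for the interaction. The simulated counts had a fixed dispersion of 0.03, and only genes with enough expected counts were changed. Those for 2VO against sham had no added library effect, so their rates need not hold for these data.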
